A study of Sus scrofa with 6 samples.

Results

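Kinesins are motor proteins that bind microtubules and hydrolyse ATP, either to walk along the filament or to shorten its ends. The genes described here are those of single pig oocytes whose symbol begins with KIF followed by a digit or by C. The files of 6 oocytes listed 19300 genes, and 31 of them carried such a symbol. One of the 31, KIF1BP, encodes a protein that binds kinesins and is no motor itself, which leaves 30 motor genes. Of these, 20 had a mean of at least 1 FPKM over the 6 oocytes and were compared. FPKM scales fragments to transcript length and library size. Levels of genes of different length can then be set side by side only roughly, since differences by length remained between oocytes, as given below.

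A first set of kinesins builds the spindle. Some push or pull on overlapping microtubules, others move chromosomes, shorten microtubule ends or organise the midzone where the cell divides. A second set carries cargo such as endosomes, mitochondria and vesicles, and the remaining ones act mainly at the centriole, in the cilium or in functions less well known. An oocyte has no centrioles at its spindle poles and must build its meiotic spindle and extrude a very small polar body from stored mRNA and protein, because its transcription falls silent when it is fully grown.

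The oocytes were at the germinal vesicle stage, before meiosis resumes, with 3 BCB-negative and 3 BCB-positive cells and 1 oocyte in each library. In the staining with brilliant cresyl blue (BCB), a growing oocyte reduces the dye and turns colourless, so the cells that stay blue, the BCB-positive ones, are generally regarded as full-sized. Per the labels' protocols, cumulus-oocyte complexes came from antral follicles of 3 to 6 mm, were freed of cumulus cells and zona pellucida, and had not been cultured for maturation. The labels give no breed, age or animal for an oocyte, and no treatment other than the staining. With no animal to serve as the unit of replication, a class counted as 1 sample in the form of 3 cells, and the differences carry no p-value. A kinesin was counted as higher or lower where the 3 oocytes of a class lay apart from the 3 of the other and the class means differed by at least 1.5-fold on the log2(FPKM + 1) scale.

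Expected counts summed to between 7122749 and 9238987 per oocyte. BCB-positive oocyte 3 stood apart, with a mean Pearson correlation of 0.874 with the other oocytes across genes, against 0.905 to 0.915 for the rest. Of 12 oocyte markers, 11 were listed, with summed levels of 18000 to 29200 FPKM across BCB-negative and 14500 to 27500 FPKM across BCB-positive cells. Of 14 cumulus and granulosa markers, 9 were listed, and their summed level ranged from 117 to 144 FPKM across the BCB-negative cells and from 79.4 to 147 FPKM across the BCB-positive cells. GATA4 and INHBA made up nearly all of this sum, and the other 7 were at 1.79 FPKM or less in each oocyte. Among these, STAR, a cholesterol carrier of steroid synthesis, rested on 92 counts, and its mean of 0.722 FPKM was under the limit for comparison. STAR was at 0.05, 0.37 and 0.16 FPKM across the BCB-negative cells and at 1.56, 1.79 and 0.4 FPKM across the BCB-positive cells, without overlap. Beside it, 7.44% of all genes compared were higher without overlap at any size. That share leaves out genes under the limit, such as STAR, for which none was computed. No other listed marker of this list lay apart. On the log2(FPKM + 1) scale GATA4 differed by -0.48 (pooled SD 0.42) and INHBA by 0.3 (pooled SD 0.25). Of 6 blood and immune markers, 2 were listed, PTPRC and CD3E, and their sum was 0.11 to 1.19 FPKM across the BCB-negative cells and 2.93 to 4.6 FPKM across the BCB-positive cells. PTPRC, the general marker of white blood cells, was at 0.56 FPKM in BCB-positive oocyte 3 and at 0 in the others. The sum was therefore CD3E alone in every oocyte but that one, where CD3E was at 2.37 FPKM. By the rule used for the kinesins CD3E was higher in BCB-positive oocytes, on 131 counts, beside 5.75% of all genes compared. Its difference was 1.5 (pooled SD 0.47), and 1.74 without BCB-positive oocyte 3. The part of such cells in the differences below was not tested. Fewer molecules of an mRNA and a smaller share of a larger RNA pool cannot be told apart in these values.

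Spindle kinesins made up most of the kinesin mRNA. They held 72.5%, 80.6% and 73.5% of the summed FPKM of the 30 motor genes in BCB-negative oocytes 1, 2 and 3. In BCB-positive oocytes 1, 2 and 3 they held 72.3%, 77.8% and 84.3%. The classes overlapped in this share. Of the 9 motor genes whose mean reached 10 FPKM, 7 were spindle kinesins, and the others were KIF13B, a vesicle transporter, and KIF24, a centriolar protein.

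**Figure D1:**
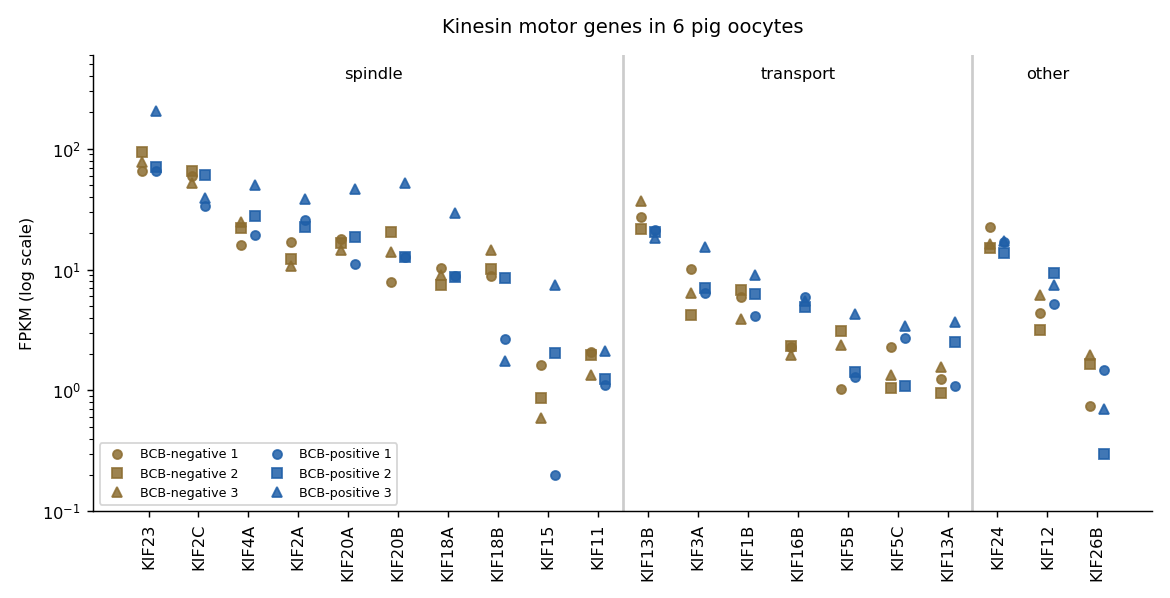
FPKM (log scale) of the 20 kinesin motor genes compared, in each of 3 BCB-negative (brown) and 3 BCB-positive (blue) oocytes, grouped as spindle, transport and other kinesins. KIF23 was the most abundant at a mean of 96.4 FPKM, and BCB-positive oocyte 3 (blue triangles) was the highest oocyte for 13 of the 20 genes.

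The total of all kinesin motors was set apart in a single oocyte. The BCB-negative oocytes had a summed FPKM of 287, 312 and 299, and the BCB-positive ones of 251, 303 and 559. BCB-positive oocytes 1 and 2 thus lay below and within the BCB-negative range, and BCB-positive oocyte 3 lay far above it. That oocyte had the highest value of 13 of the 20 genes compared, whereas it was highest for 32.6% of all 11493 genes compared. Its median deviation from the mean of the other oocytes, on the log2(FPKM + 1) scale, was 0.85 over the 20 kinesins and 0.18 over all genes. Kinesin transcripts are long, with a median listed length of 4252 bases against 1811 bases for all genes compared. In BCB-positive oocyte 3 the median deviation was -0.16 for genes under 1000 bases and 0.27 for genes of 3000 to 5000 bases. In the other oocytes it ranged from -0.08 to 0.03 for that longer class. The part of length in the kinesin values was not tested.

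**Figure D2:**
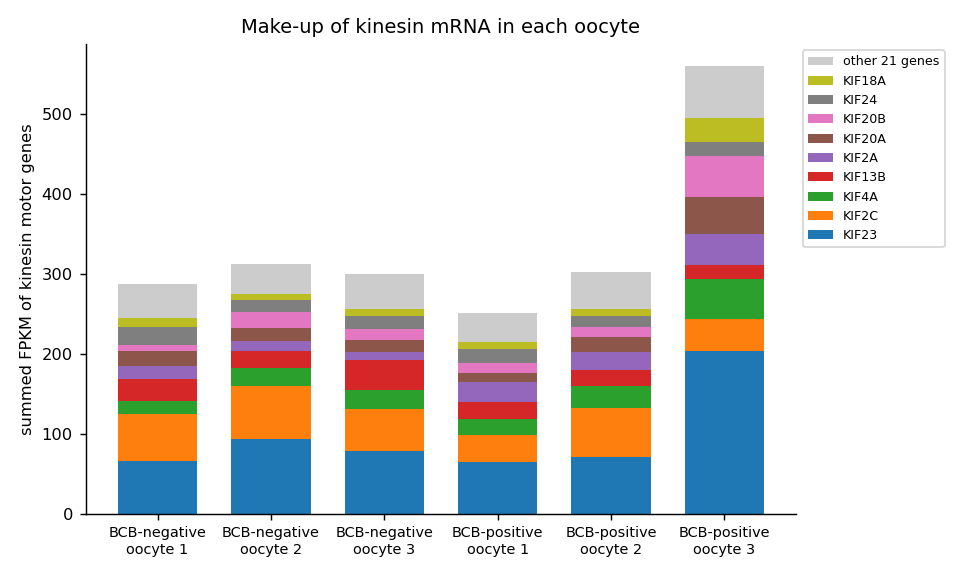
Summed FPKM of 30 kinesin motor genes in each oocyte, stacked by gene, with the 9 most abundant genes in colour and the other 21 in grey. The sum was 251 to 312 FPKM in 5 oocytes and 559 FPKM in BCB-positive oocyte 3, where KIF23 alone held 204 FPKM.

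Between the classes, 2 of the 20 kinesins were higher in BCB-positive oocytes and 1 was lower. The higher genes were KIF2A, a spindle kinesin, and KIF16B, a transport kinesin, and the lower gene was the spindle kinesin KIF18B. Of all 11493 genes compared, 5.75% were higher and 2.66% lower by the same rule. With 20 genes these counts lie too near that background to set the family apart. Without BCB-positive oocyte 3 the 3 kinesins met the rule again and no other did, where the shares of all genes were 7.19% and 4.4%. Classes that lie apart cannot come to overlap when an oocyte is left out. For these 3 kinesins only the 1.5-fold limit could therefore fail. Without BCB-positive oocyte 1 the count of higher kinesins was 7 and of lower kinesins 2, beside 13.7% and 6.92% of all genes. The 7 were KIF2A, KIF16B, KIF4A, KIF12, KIF13A, KIF15 and KIF20A. Leaving out BCB-negative oocyte 1 or 2 or BCB-positive oocyte 2 also gave 2 lower kinesins, the second being KIF26B, KIF13B and KIF2C in turn, beside 5.53%, 5.01% and 5.46% of all genes. In these cases 3, 2 and 3 kinesins were higher, beside 11.1%, 8.74% and 10.3% of all genes. Without BCB-negative oocyte 3 there were 3 higher kinesins and 1 lower, beside 8.82% and 4.97% of all genes.

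The median difference over the 10 spindle kinesins was 0.45 on the log2(FPKM + 1) scale, and the SD of the list's median level between oocytes of a class was 0.60. Without BCB-positive oocyte 3 this median changed sign, to -0.10. The 7 transport kinesins had a median of 0.38 (SD of the list's median level 0.17), and of 0.04 without that oocyte. The median of all genes compared was 0.11, and 0.05 without it. The class mean was higher in BCB-positive oocytes for 14 of the 20 kinesins with all oocytes and for 7 without that one.

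**Figure D3:**
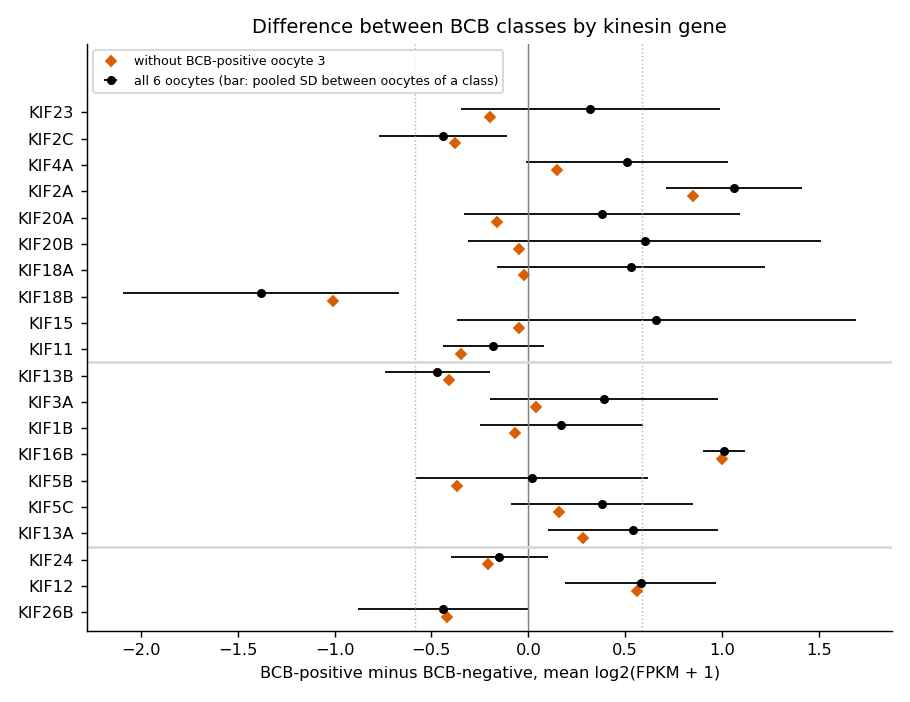
BCB-positive minus BCB-negative difference of mean log2(FPKM + 1) for 20 kinesins, with all 6 oocytes (black, bar: pooled SD between oocytes of a class) and without BCB-positive oocyte 3 (orange). Dotted lines mark 1.5-fold. KIF2A and KIF16B stayed to the right of the upper line and KIF18B to the left of the lower one in both, while KIF23, KIF20A, KIF20B, KIF18A, KIF15, KIF5B and KIF1B crossed 0.

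The microtubule depolymerisers of the kinesin-13 family differed from each other in their pattern. KIF2A (gene 100625826), which acts mainly at spindle poles, was at 16.8, 12.2 and 10.7 FPKM across the BCB-negative cells and at 26.0, 22.6 and 38.1 FPKM across the BCB-positive cells. Every BCB-positive oocyte lay above every BCB-negative one. The log2 difference was 1.06 (pooled SD 0.35), and 0.85 without BCB-positive oocyte 3. The values rested on 766 counts in the BCB-negative oocytes (95% exact Poisson interval 713 to 822) and 1910 in the BCB-positive oocytes (1825 to 1998). These intervals cover counting error only and not the spread between oocytes, and the protocol names no molecular identifiers. KIF2A overlaps DIMT1, an rRNA methyltransferase gene, in the reference annotation, and no strand is stated, so its value is uncertain. DIMT1 was at 19.6, 27.4 and 8.2 FPKM across the BCB-negative cells and at 23.2, 33.1 and 27.1 FPKM across the BCB-positive cells, so its classes overlapped. The sum of both genes did not overlap and differed by 0.88 (pooled SD 0.42).

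KIF2C (gene 100516205), known as MCAK, removes wrongly attached microtubules at the centromere. It was the second most abundant kinesin, at 59.5, 65.6 and 52.0 FPKM across the BCB-negative cells and at 33.5, 60.6 and 39.2 FPKM across the BCB-positive cells. BCB-positive oocyte 2 lay within the BCB-negative range and the other 2 lay below it, for a difference of -0.44 (pooled SD 0.33). The sum of KIF2A and KIF2C averaged 72.3 ± 8.31 FPKM (SD, n = 3) in BCB-negative and 73.3 ± 12.3 FPKM across the BCB-positive cells. KIF2A held 22.0%, 15.7% and 17.1% of this sum in BCB-negative oocytes and 43.7%, 27.2% and 49.3% in BCB-positive oocytes, with no overlap. A share within an oocyte does not depend on the scaling of the library. This share, and those of KIF18B, KIF16B and KIF13B below, were chosen after the values were seen.

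**Figure D4:**
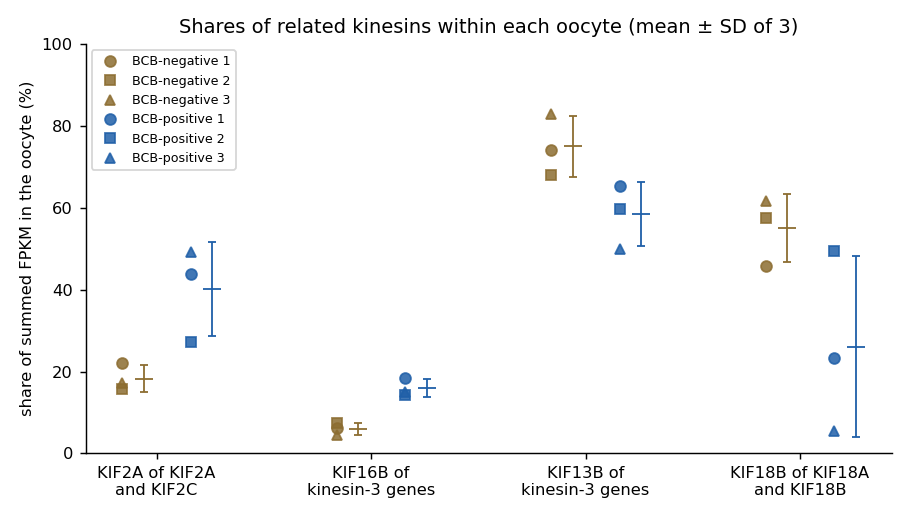
Share of the summed FPKM of related kinesins within each oocyte (%), for KIF2A among KIF2A and KIF2C, KIF16B and KIF13B among the kinesin-3 transport genes, and KIF18B among KIF18A and KIF18B. Points are oocytes and bars the mean ± SD of 3. The classes were apart for KIF2A, KIF16B and KIF13B and overlapped for KIF18B.

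The kinesin-8 genes encode motors that walk to microtubule plus ends and limit their growth. KIF18B (gene 100521577), which acts on astral microtubules, was at 8.79, 10.1 and 14.6 FPKM across the BCB-negative cells and at 2.66, 8.51 and 1.74 FPKM across the BCB-positive cells. The classes lay apart narrowly, since BCB-positive oocyte 2 at 8.51 FPKM came close to BCB-negative oocyte 1 at 8.79 FPKM. Its log2 difference was -1.38 (pooled SD 0.71), and -1.01 without BCB-positive oocyte 3. The summed counts were 738 in BCB-negative (95% exact Poisson interval 686 to 793) and 317 in BCB-positive oocytes (283 to 354). The BCB-positive oocytes had 62, 207 and 48 counts, a spread that the interval does not cover. KIF18A, which dampens chromosome movements at the metaphase plate, was at 10.4, 7.46 and 9.02 FPKM across the BCB-negative cells and at 8.8, 8.67 and 29.6 FPKM across the BCB-positive cells. The first 5 of these values lie close together, and METTL15, which overlaps KIF18A in the reference annotation, was at most 1.19 FPKM. The KIF18A difference of 0.53 (pooled SD 0.69) became -0.02 without BCB-positive oocyte 3. KIF18B held 45.7%, 57.5% and 61.7% of the KIF18A and KIF18B sum in BCB-negative and 23.2%, 49.5% and 5.56% in BCB-positive oocytes. Here the classes overlapped.

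KIF18A was also the only kinesin with a shift in transcript makeup among the 5 that could be compared. These 5, KIF18A, KIF20B, KIF24, KIF2C and KIF4A, reached 5 FPKM in each oocyte and had 2 transcripts or more in the files. A shift meant that the classes did not overlap in a transcript's share of the gene and that the mean shares lay at least 20 percentage points apart, which 3.53% of 1956 genes met. The KIF18A transcript of 3129 bases held 100% of the gene's FPKM in each BCB-negative oocyte and 64.2%, 74.0% and 95.5% in BCB-positive oocytes 1, 2 and 3. A transcript of 3454 bases had an estimated 23, 62 and 40 counts in the BCB-positive oocytes and 0 in the others. A transcript of 2207 bases had 38 counts in BCB-positive oocyte 1 and 1 in BCB-positive oocyte 3. The shares are estimates that divide reads among transcripts sharing sequence, and BCB-positive oocyte 3 was close to the BCB-negative oocytes. For KIF2C, the most abundant of the 5, the transcript of 2838 bases held 96.3% or more of the FPKM in BCB-negative oocytes and 95.2%, 97.4% and 86.4% in BCB-positive oocytes, which overlapped.

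**Figure D5:**
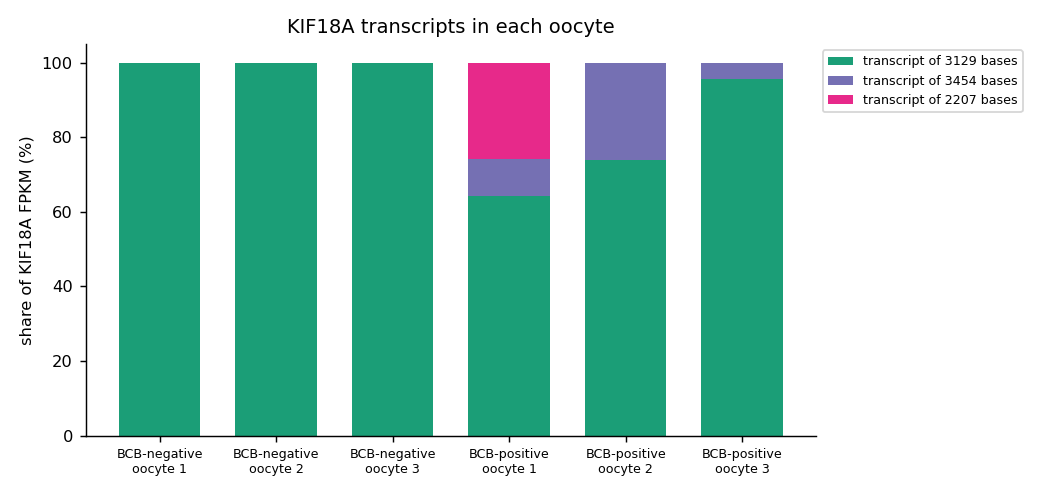
Share (%) of KIF18A FPKM held by its 3 listed transcripts in each oocyte, by listed length in bases. The transcript of 3129 bases held all of it in the 3 BCB-negative oocytes and 64.2% to 95.5% in the BCB-positive oocytes.

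KIF4A (gene 100152604) moves along chromosome arms and sets the length of midzone microtubules. It was at 16.1, 22.1 and 24.6 FPKM across the BCB-negative cells and at 19.2, 27.6 and 49.8 FPKM across the BCB-positive cells, which overlapped. Its difference was 0.51 (pooled SD 0.52), and 0.15 without BCB-positive oocyte 3. KIF22, which pushes chromosomes away from the poles, rested on 3 counts in all 6 oocytes and was not compared.

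The midzone and cytokinesis kinesins include the most abundant kinesin, KIF23, and none of those compared lay apart between the classes. KIF23 (gene 100522116), the motor of the centralspindlin complex, was at 65.7, 94.0 and 78.4 FPKM across the BCB-negative cells and at 65.3, 71.1 and 204 FPKM across the BCB-positive cells. It ranked in the 89.1 percentile of mean FPKM among all genes compared. KIF20A, which brings the chromosomal passenger complex to the midzone, was at 17.9, 16.7 and 14.5 FPKM and at 11.2, 18.8 and 46.6 FPKM in the same order. KIF20B, a relative that acts late in cytokinesis, ranged from 7.88 to 20.3 FPKM across the BCB-negative cells and was at 12.7, 12.7 and 52.0 FPKM across the BCB-positive cells. In all 3 genes BCB-positive oocyte 3 was the highest, and the other BCB-positive oocytes lay within or below the BCB-negative range, save KIF20A in BCB-positive oocyte 2, at 18.8 FPKM against at most 17.9. Their differences of 0.32, 0.38 and 0.60 became -0.20, -0.16 and -0.05 without that oocyte. KIF20A overlaps CDC23 in the reference annotation, but CDC23 was at most 0.53 FPKM. KIF14, which also acts in cytokinesis, averaged 0.952 FPKM and was under the limit.

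The mRNAs of the motors that push spindle poles apart were low in mean FPKM, and their proteins were not measured. KIF11 (gene 100526080), also called Eg5, which slides antiparallel microtubules to make the spindle bipolar, was at 2.09, 1.96 and 1.34 FPKM across the BCB-negative cells and at 1.11, 1.24 and 2.11 FPKM across the BCB-positive cells. KIF15, which can take over part of this task, was at 1.63, 0.86 and 0.59 FPKM and at 0.2, 2.06 and 7.42 FPKM in the same order. Both overlapped between the classes. KIF11 differed by -0.18 (pooled SD 0.26), and by -0.35 without BCB-positive oocyte 3. BCB-positive oocytes 1 and 2 lay below every BCB-negative one in KIF11. KIF15 differed by 0.66 (pooled SD 1.03), and by -0.05 without BCB-positive oocyte 3. KIF11 rested on 372 counts in the 6 oocytes and ranked in the 11.0 percentile of mean FPKM.

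Among transport kinesins, the kinesin-3 gene KIF13B was the most abundant, and KIF16B, also of kinesin-3, was the only one counted as higher or lower. KIF16B (gene 100154597), which moves early endosomes and receptors, was at 2.29, 2.34 and 1.96 FPKM across the BCB-negative cells and at 5.98, 4.87 and 5.48 FPKM across the BCB-positive cells. The oocytes of a class lay close together and the classes wide apart, with a log2 difference of 1.01 and a pooled SD of 0.11. The difference was 1.00 without BCB-positive oocyte 3. The counts were 248 in BCB-negative (95% exact Poisson interval 218 to 281) and 692 in BCB-positive oocytes (641 to 746). KIF16B shares no overlap with another gene of the reference. Its expected counts, from 70.37 to 255.38, were not whole numbers in any oocyte, unlike those of most kinesins. Whether reads were divided between KIF16B and another gene was not tested. Of the summed FPKM of the kinesin-3 transport genes it held 6.23%, 7.33% and 4.43% in BCB-negative and 18.5%, 14.3% and 15.0% in BCB-positive oocytes.

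KIF13B (gene 100155514), which carries vesicles with phosphoinositide cargo, lay the other way. It was at 27.2, 21.7 and 36.7 FPKM across the BCB-negative cells and at 21.1, 20.3 and 18.2 FPKM across the BCB-positive cells. The classes did not overlap, though narrowly, and the difference of -0.47 (pooled SD 0.27) was under 1.5-fold. Across all genes compared, 4.03% were lower in BCB-positive oocytes without overlap at any size and 7.44% were higher in the same sense. KIF13B held 74.1%, 68.0% and 82.8% of the kinesin-3 sum in BCB-negative and 65.4%, 59.8% and 50.0% in BCB-positive oocytes. KIF1B, a carrier of mitochondria and vesicle precursors, was at 5.98, 6.75 and 3.9 FPKM across the BCB-negative cells and at 4.11, 6.29 and 9.06 FPKM across the BCB-positive cells. KIF13A, which moves endosomes and mannose 6-phosphate receptors, was at 1.24, 0.95 and 1.55 FPKM and at 1.09, 2.5 and 3.7 FPKM in the same order. Both overlapped, with differences of 0.17 and 0.54. KIF1C, which carries vesicles from the Golgi, rested on 13 counts.

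Kinesin-1, the classic cargo motor, and kinesin-2, which also serves the cilium, showed no separation of the classes. KIF5B, the widely expressed kinesin-1 heavy chain, was at 1.03, 3.1 and 2.37 FPKM across the BCB-negative cells and at 1.28, 1.43 and 4.28 FPKM across the BCB-positive cells, a difference of 0.02 (pooled SD 0.60). KIF5C, a heavy chain best known from neurons, was at 2.27, 1.04 and 1.35 FPKM and at 2.72, 1.09 and 3.41 FPKM in the same order. Both genes overlapped and stood near 2 FPKM. KIF3A of kinesin-2 was at 10.2, 4.24 and 6.37 FPKM across the BCB-negative cells and at 6.45, 7.08 and 15.3 FPKM across the BCB-positive cells. KIF3A overlaps RAD50, a repair gene, in the reference annotation, and RAD50 was also highest in BCB-positive oocyte 3, at 28.2 FPKM against 2.8 to 7.12 FPKM elsewhere, so KIF3A is uncertain. Its partner motor KIF3B was listed in BCB-positive oocyte 3 alone, with 7 counts. KIFC3, a motor that walks to the minus end, rested on 13 counts and was not compared. It was at 0, 0.04 and 0 FPKM across the BCB-negative cells and at 0.21, 0.2 and 0.07 FPKM across the BCB-positive cells. These values did not overlap, beside 7.44% of all genes compared that were higher without overlap at any size. That share leaves out genes under 1 FPKM such as KIFC3, for which none was computed.

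Of the kinesins outside both sets, 3 were compared and none lay apart. KIF24, which restrains cilium growth at the centriole, was at 22.7, 15.0 and 16.3 FPKM across the BCB-negative cells and at 16.9, 13.7 and 17.4 FPKM across the BCB-positive cells. It overlaps NUDT2 and UBAP1 in the reference annotation and is uncertain. KIF12 was at 4.4, 3.15 and 6.19 FPKM and at 5.18, 9.35 and 7.45 FPKM in the same order, a difference of 0.58 (pooled SD 0.39). KIF26B, a kinesin without the usual motor activity, was at 0.74, 1.67 and 1.95 FPKM across the BCB-negative cells and at 1.47, 0.3 and 0.7 FPKM across the BCB-positive cells. In each gene at least 1 BCB-positive oocyte fell within the BCB-negative range.

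Genes whose products work with kinesins were taken from a list of light chains, cargo adaptors and spindle partners. Of 11 such genes compared, KIF1BP apart, 0 were higher and 1 was lower, beside the 5.75% and 2.66% of all genes. The lower gene was MAPK8IP1, a scaffold that links kinesin-1 to its cargo. MAPK8IP1 was at 6.81, 8.78 and 11.1 FPKM across the BCB-negative cells and at 5.85, 2.22 and 5.94 FPKM across the BCB-positive cells, a difference of -0.86 (pooled SD 0.50), and of -1.05 without BCB-positive oocyte 3. Every BCB-positive oocyte lay below every BCB-negative one, but only BCB-positive oocyte 2 lay far below. Without BCB-positive oocyte 2, or with FPKM brought to an equal sum, 0 partners were lower, beside 5.46% and 1.96% of all genes. Without BCB-negative oocyte 1, BCB-positive oocyte 1 or BCB-positive oocyte 2, 1 partner was higher, beside 11.1%, 13.7% and 10.3% of all genes.

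RACGAP1, which binds KIF23 in centralspindlin, was at 64.9, 81.4 and 68.7 FPKM across the BCB-negative cells and at 63.7, 92.0 and 160 FPKM across the BCB-positive cells. It was highest in the same oocyte as KIF23. CKAP5, a microtubule polymerase, ranged from 9.91 to 19.4 FPKM across the BCB-negative cells and from 16.7 to 21.1 FPKM across the BCB-positive cells. PLEKHM2, a cargo adaptor of kinesin-1, stood at 14.6, 17.2 and 22.1 FPKM across the BCB-negative cells and at 22.2, 15.5 and 13.1 FPKM across the BCB-positive cells. RHOT1, which tethers mitochondria to kinesin-1, averaged 47.7 FPKM across the BCB-negative cells and 55.2 FPKM across the BCB-positive cells. KLC1, a kinesin-1 light chain, was at 9.26, 1.32 and 4.94 FPKM and at 8.06, 7.39 and 16.1 FPKM. KIFAP3, the accessory subunit of kinesin-2, averaged 5.63 and 7.49 FPKM, and CENPE, the kinetochore kinesin whose symbol falls outside the rule, 1.9 and 2.84 FPKM. All 7 of these partners overlapped between the classes.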

How the data were processed

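Single oocytes, 3 BCB-negative and 3 BCB-positive, were sequenced after poly(dT) priming (24 nt) and PCR, per the labels' protocols. BWA, RSEM, Cufflinks and the pig build Sscrofa10.2 appear in the submitters' processing notes, without a role, order or version. The deposited expected counts are estimates by gene and by transcript. FPKM values were normalised by the authors and deposited with 2 decimals. Genes that an oocyte's file does not list were taken as 0. Symbols came by NCBI gene ID from a table of Sscrofa11.1, used for names and overlaps of genes only, so no coordinates are given. Of 19300 IDs, 13936 matched, and a kinesin among the other 5364 would be missed. A further 10 symbols of the rule (KIF19, KIF1A, KIF25, KIF26A, KIF2B, KIF3C, KIF5A, KIF9, KIFC1 and KIFC2) had no row under their ID and were not analysed here. No protein or promoter sequence was used here.

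Differences are BCB-positive minus BCB-negative means of log2(FPKM + 1), which understates those of low genes, computed over 11493 genes whose mean reached 1 FPKM. No test was run, because a class is 1 sample of 3 cells. The calculation was run on simulated counts with known changes as a check of the code only. The simulated spread was the same for every gene and was not taken from these oocytes. It therefore gives no rate of false calls for these data. The members and lists were chosen with earlier results of these data known. Values in every oocyte are given for kinesins that lie apart by 1.5-fold, the 2 most abundant of each spindle and transport subgroup, those with the largest overlapping difference in each direction, and the 3 most abundant others. For partners they are given for those that lie apart and for the 2 most abundant of each subgroup, at times as a range or class means. Exact Poisson intervals are at 95%, for counts summed over the 3 oocytes of a class without scaling for depth, and leave out the spread between oocytes. Alternatives were another pseudocount, 3 other scalings, the ratio of class means, other filters, a 2-fold limit and leaving out each oocyte. Of the partner list, 2 genes are not reported here and were left out of the partner counts and medians. The sum of KIF2A and DIMT1, shares within subfamilies and the alternatives for partners were chosen after seeing the data. Of 7 theca and stroma markers 5 were listed, summing to 0.19 to 2.04 FPKM in BCB-negative and 1.0 to 3.33 FPKM in BCB-positive oocytes. Of 5 endothelial markers 3 were listed, summing to 6.94 to 15.6 and 8.77 to 23.0 FPKM. Computations used Python 3.11.15, numpy 2.4.6, pandas 2.3.3 and scipy 1.17.1.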

Additional observations from a re-analysis of the deposited data

How the results depend on the processing

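KIF2A and KIF16B were higher and KIF18B lower under the pseudocount of 0.1 FPKM, the 3 other scalings, the ratio of class means, no filter and the 2-fold limit. The same held without any single oocyte, where only the 1.5-fold limit could fail for them. With a mean of at least 5 FPKM, KIF16B fell out by its level and 1 kinesin was higher. Beside the main setting, shares of all genes called were computed only without each oocyte and with FPKM brought to an equal sum. With an equal sum, 7.12% of all genes were higher and 1.96% lower. For the other settings, the 2-fold limit for partners among them, no share was computed, so those counts have no background. Leaving out an oocyte gave 2 to 7 higher and 1 to 2 lower kinesins, beside 7.19% to 13.7% and 4.4% to 6.92% of all genes. The spindle median ranged from -0.10 to 0.81 without an oocyte. The transport median ranged from 0.04 to 0.54 without an oocyte, and was 0.18 with no filter and 0.17 at 5 FPKM. Lower partners numbered 0 with FPKM brought to an equal sum, 0 at 2-fold and 0 to 1 without an oocyte, and higher partners 0 to 1 without an oocyte. The partner median ranged from 0.05 to 0.43 without an oocyte. Of 231 recomputed differences of the 21 kinesins named by the rule, 7 moved by more than the SD between oocytes. Among KIF2A, KIF16B and KIF18B 0 changed sign, which leaving out an oocyte could not bring about. KIF23, KIF20A, KIF18A, KIF15, KIF1B and KIF5B changed sign without BCB-positive oocyte 3. No paired analysis was possible because replicate numbers name oocytes only and no test was run. Depth limits the kinesins under 1 FPKM most, of which KIF6, KIF22 and KIF3B rest on 2, 3 and 7 counts.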

Other observations

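Of the kinesins under the limit of 1 FPKM, KIF21A and KIF27 each passed 1 FPKM in 1 oocyte and KIF14 in 4. KIF21A, which restrains microtubule growth, was at 2.25 FPKM in BCB-positive oocyte 1 and at 0.02 to 0.59 FPKM in the others. KIF27, a relative of the hedgehog regulator KIF7, was at 1.4 FPKM in BCB-positive oocyte 3 and at 0.14 FPKM or less elsewhere, on 42 counts in all. KIF14 was at 1.22, 0 and 0.57 FPKM across the BCB-negative cells and at 1.09, 1.58 and 1.25 FPKM across the BCB-positive cells. KIF7, KIF21B and KIF6 rested on 32, 11 and 2 counts.

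KIF1BP, which binds and holds back kinesins, varied more within the classes than any other member compared. It was at 9.11, 9.62 and 2.28 FPKM across the BCB-negative cells and at 8.0, 2.04 and 37.3 FPKM across the BCB-positive cells. The pooled SD on the log2(FPKM + 1) scale was 1.46, against a difference of 0.52 between the classes, and KIF1BP differed by -0.43 without BCB-positive oocyte 3.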
